A study of Mus musculus with 12 samples.

Results

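Granulocyte-macrophage progenitors (GMPs) were set against LSK cells in mice with myeloid disease on 4 of the 12 arrays of the study. They were chosen by their titles, which carry the suffix MDS/MPN or RAEB: 2 GMP arrays and 2 LSK arrays, paired by disease name. LSK cells are marrow cells that carry Sca-1 and c-Kit and lack markers of mature lineages. The cells of all 4 arrays were Tet2KD/KDEzh2-/- on a C57BL/6 background, purified from the marrow of mice that had developed a myelodysplastic/myeloproliferative neoplasm (MDS/MPN) or a refractory anaemia with excess of blasts (RAEB). The other 8 arrays hold GMPs and LSK cells without disease of 4 genotypes: Tet2KD/KDEzh2-/- (the double mutant), Ezh2-/-, Tet2KD/KD and wild-type. The marrow of recipient mice had been repopulated by fetal liver cells, so the surrounding tissue was that of the recipient. Tet2KD is a hypomorphic allele that lowers Tet2 expression, and Ezh2-/- cells lack Ezh2, a histone methyltransferase of Polycomb repressive complex 2.

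Each cell type and condition had 1 array, and the labels give neither the number of mice behind an RNA, nor their ages, nor the time after transplantation. The 2 diseased pairs therefore served as replicates of the cell type difference in disease, and the 4 other pairs as replicates of the difference without disease. The labels do not say whether both cell types of a pair came from the same mice. Within both diseased pairs the sex-linked genes given below differed between the cell types. The diseased pairs are therefore matched by disease name only, and p-values measure the spread between pairs of arrays. That spread was 1 estimate shared by the diseased pairs and the 4 others. The p-values in disease therefore also rest on the spread between the pairs without disease. The 2 diseased GMP arrays were on one slide, both diseased LSK arrays on a different one, and the remaining 8 together on yet another. In disease, slide and cell type therefore cannot be told apart, and the same holds for every comparison below between the difference in disease and the difference without disease. Fewer cells of a type and less RNA per cell cannot be told apart either.

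The LSK fraction contains haematopoietic stem cells and multipotent progenitors, including cells primed for the lymphoid lineage. GMPs lie further along the myeloid branch, have shut down stem cell and lymphoid genes, and make the enzymes that are packed into the primary granules of neutrophils and monocytes.

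Levels are in log2 units, with 0 at the 75th percentile of each array, and 1 unit is a factor of 2. Differences are GMP minus LSK on that scale, with the standard error (SE) of limma and a p-value adjusted by the Benjamini-Hochberg method over 13713 genes, at a threshold of 0.05. Values of the diseased arrays are given for MDS/MPN and then RAEB, and those of the others for the double mutant, Ezh2-/-, Tet2KD/KD and wild-type. The 75th percentile was 188.8 and 168.5 intensity units on the diseased GMP arrays, 369.2 and 389.4 on the diseased LSK arrays, and between 194.8 and 275.3 on the rest. Of all gene spots, 45.6 and 46.7% were well above background on the diseased GMP arrays and 52.3 and 50.9% on the diseased LSK arrays. The dimmest signal well above background was -3.76 and -3.77 on the diseased GMP arrays and -4.62 and -4.59 on the diseased LSK arrays, so values near or below these levels are not exact.

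The alleles and the sex-linked genes were read before the comparison. Tet2 was -1.77 and -3.09 in diseased GMPs and -1.27 and -1.22 in diseased LSK cells, below the wild-type levels of 1.57 in GMPs and 0.44 in LSK cells. The Ezh2 probe read 2.68 and 2.68 in diseased GMPs and 3.16 and 3.28 in diseased LSK cells, against 3.24 and 2.76 in wild-type cells. Whether it falls inside the deletion is not known from the files, so it checks nothing. Xist, the RNA that coats the inactive X chromosome, was -5.56 and -5.59 on the diseased GMP arrays, at background, and 1.35 and 1.63 on the diseased LSK arrays. The Y-linked Eif2s3y, a translation initiation factor gene, ran the other way, at 1.51 and 0.82 in diseased GMPs and at background in diseased LSK cells (-6.76 and -6.72). The 2 cell types of a disease therefore differed in their sex-linked pattern, whereas within each of the 4 pairs without disease the pattern was shared. The peptide transporter gene Slc15a2 was not well above background on any of the 6 arrays on which Eif2s3y was not. Of the 4 sex-linked genes tested, 3 rose and 1 fell in disease. Sex pattern, slide and cell type cannot be told apart in disease.

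**Figure D1:**
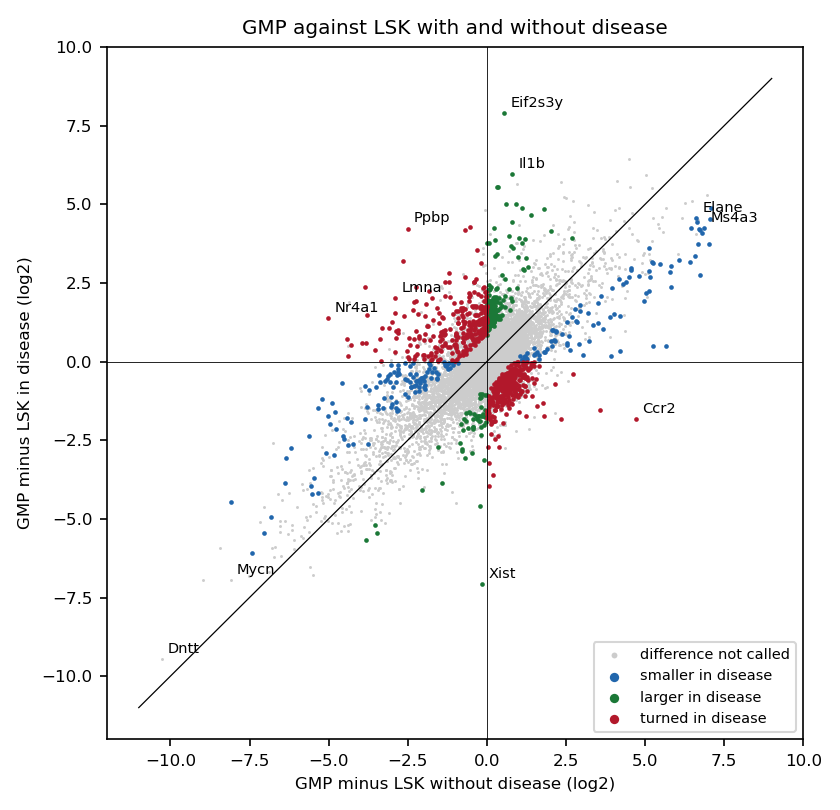
Each point is 1 of the 13713 genes, with the GMP minus LSK difference in disease (2 pairs, vertical axis) against that without disease (4 pairs, horizontal axis), both in log2 units. Coloured genes had a difference in disease that departed from the difference without disease at an adjusted p under 0.05: smaller (204 genes), larger (240) or of opposite sign (593). The diagonal marks equal differences.

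The 4 genes given as markers of the populations kept their direction in disease. Elane, which encodes neutrophil elastase, was 9.40 and 8.96 in diseased GMPs and 5.51 and 3.74 in diseased LSK cells. Without disease it was 9.07, 8.55, 8.92 and 8.98 in GMPs and 2.41, 1.69, 2.43 and 2.50 in LSK cells. Diseased GMPs were thus at or slightly above the level of the other GMPs, while both diseased LSK arrays lay above all 4 LSK arrays without disease. Elane rose by 4.56 in disease (SE 0.31, adjusted p = 0.0004) and by 6.62 without disease, and the difference between these values was -2.07 (SE 0.38, adjusted p = 0.0328). Ms4a3, a membrane protein gene used to mark granulocyte and monocyte progenitors, was 8.88 and 8.35 in diseased GMPs and 5.22 and 3.52 in diseased LSK cells. Its LSK levels without disease were 1.33, 0.39, 1.11 and 1.92, again below both diseased LSK arrays. Ms4a3 rose by 4.25 in disease (SE 0.33) and by 6.86 without disease, a departure of -2.62 (SE 0.41, adjusted p = 0.0307).

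The stem and lymphoid markers were lower in GMPs in both settings. Dntt, the template-independent DNA polymerase of lymphoid precursors, was -2.32 and -1.49 in diseased GMPs and 7.14 and 7.95 in diseased LSK cells. Its difference was -9.45 in disease (SE 0.23, adjusted p = 3.05e-05) and -10.27 without disease, a departure of 0.81 that did not pass (SE 0.28, adjusted p = 0.118). Mycn, a proto-oncogene of the Myc family active in stem cells, was 2.39 and 2.40 in diseased LSK cells and not well above background in either diseased GMP array, which makes it at least 71.7-fold lower in diseased GMPs. Without disease the same reckoning gave at least 83.8-fold. The fitted differences of Mycn were -6.94 in disease and -8.10 without, a departure of 1.16 that did not pass (adjusted p = 0.133). Here the bound sets the mean of the brighter arrays against the lowest signal well above background on the dimmer ones.

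The promoters of 4 genes on which the results turn are shown here, chosen after their values were known, as the 250 bases before the RefSeq start (build GRCm38.p6), 5′ to 3′ on the gene's own strand. Capitals mark TGACG on either strand, the core of the cyclic AMP response element, in Nr4a1, Atf3 and Fosb, and GAGGAAG on either strand, a core bound by the myeloid factor PU.1, in Elane.
Nr4a1, chr15:101266596-101266845, + strand: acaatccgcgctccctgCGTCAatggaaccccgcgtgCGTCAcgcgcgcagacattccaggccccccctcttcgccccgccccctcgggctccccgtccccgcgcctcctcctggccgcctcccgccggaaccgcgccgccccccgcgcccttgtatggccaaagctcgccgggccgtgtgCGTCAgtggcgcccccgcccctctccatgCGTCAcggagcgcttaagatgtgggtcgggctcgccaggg
Atf3, chr1:191183334-191183583, - strand: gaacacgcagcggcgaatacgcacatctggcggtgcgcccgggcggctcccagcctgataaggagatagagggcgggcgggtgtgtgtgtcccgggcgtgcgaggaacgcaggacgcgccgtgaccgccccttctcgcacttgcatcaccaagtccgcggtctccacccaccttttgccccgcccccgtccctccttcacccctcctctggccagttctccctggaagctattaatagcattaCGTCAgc
Fosb, chr7:19310046-19310295, - strand: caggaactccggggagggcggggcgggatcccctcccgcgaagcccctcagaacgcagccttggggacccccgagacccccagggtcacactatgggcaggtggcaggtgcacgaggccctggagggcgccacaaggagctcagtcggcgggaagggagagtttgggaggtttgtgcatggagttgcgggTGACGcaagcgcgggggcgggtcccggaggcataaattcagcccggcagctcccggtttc
Elane, chr10:79886062-79886311, + strand: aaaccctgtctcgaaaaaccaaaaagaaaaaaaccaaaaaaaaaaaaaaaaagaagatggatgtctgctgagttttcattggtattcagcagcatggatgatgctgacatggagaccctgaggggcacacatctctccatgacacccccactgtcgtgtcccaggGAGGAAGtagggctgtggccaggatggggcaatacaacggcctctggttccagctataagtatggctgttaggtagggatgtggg
Nr4a1 had 4 matches, at bases -233 to -229, -213 to -209, -69 to -65 and -40 to -36 before the start, and Atf3 had 1 at -7 to -3. Among immediate-early genes with a listed promoter, 12 of 23 held TGACG (52.2%), against 25.8% of 10986 tested genes and 17.9% of all 27025 promoters. GAGGAAG stood in 5 of 12 promoters of the primary granule list (41.7%), against 10.9% of tested genes and 10.4% of all. The full palindrome TGACGTCA, which contains TGACG, was in 2 of the 23 immediate-early promoters (8.70%) and 1.62% of all. The motif TTGCNNAA of the C/EBP family was in 1 of the 12 granule promoters (8.33%) and 9.55% of all. These matches describe the letters only.

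Over all genes, most differences between the populations had the same direction in disease. In disease 4657 of 13713 genes passed (34.0%), of which 2741 were higher (20.0%) and 1916 lower in GMPs (14.0%). Without disease 6506 passed (47.4%), 3705 higher (27.0%) and 2801 lower (20.4%). Of the 3705 genes higher in GMPs without disease, 2522 were positive in both diseased pairs (68.1%, against 43.2% of all genes) and 368 negative in both. Of the 2801 lower genes, 2050 were negative in both diseased pairs (73.2%, against 29.7% of all genes) and 288 positive in both. Called in the same direction in both settings were 1493 higher and 1300 lower genes, while 86 were lower in diseased GMPs but higher without disease and 74 the reverse. A further 2126 higher and 1427 lower genes were called without disease only. Of these, 176 and 164 had a called departure; the rest are not shown to have lost their difference, since 2 pairs give less precision than 4. With quantile normalization the balance of the disease calls turned, at 43.4% of calls higher in place of 58.9%.

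The departure of the difference in disease from that without disease passed for 1037 genes (7.56%). It was smaller in disease for 204 (1.49%), larger with the same sign for 240 (1.75%) and of opposite sign for 593 (4.32%). These kinds go by the signs of the fitted differences, whether or not each of them passed on its own. By direction, 579 departures were positive (4.22%) and 458 negative (3.34%). This count depended on single conditions: it was 65, 64, 58, 74 and 38 when the wild-type, Tet2KD/KD, Ezh2-/-, double mutant or RAEB pair was left out and 1532 without the MDS/MPN pair. Set against the double mutant pair alone, the genotype of the diseased cells, it was 8. Normexp background correction gave 3520 and no filter on dim probes 5310.

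Genes that were GMP-high without disease and had a smaller difference in disease mostly had higher LSK levels in disease. Of the 90 such genes, 79 had both diseased LSK arrays above all 4 LSK arrays without disease, against 27.0% of all genes, and 30 had both diseased GMP arrays below the other GMPs, against 14.8% of all genes. Their median difference was 1.35 in disease and 3.51 without. Of the 114 genes that were lower in GMPs, 98 had both diseased GMP arrays above the others (28.9% of all genes) and 71 both diseased LSK arrays below (18.3% of all genes). Their medians were -0.71 in disease and -2.82 without. The call and these counts use the same arrays, so the counts describe where a called difference arose and do not support it.

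The genes chosen in the wild-type pair alone, for a difference of at least 4-fold, could be read in 5 pairs that took no part in the choice. The 418 genes higher in wild-type GMPs had median differences of 2.21 in MDS/MPN and 2.39 in RAEB, against 2.95, 2.85 and 2.52 in the double mutant, Ezh2-/- and Tet2KD/KD pairs. Of them, 406 and 381 kept their direction in the diseased pairs, and 58.4 and 56.0% were still at least 4-fold higher, against 80.9, 73.7 and 65.6% in the other pairs. Their median level was 1.48 and 0.92 in diseased GMPs, against 1.05, 0.76 and 0.53 in the others. In LSK cells it was -0.86 and -1.60 with disease, above the -2.55, -2.71 and -2.79 of the others. The 849 genes lower in wild-type GMPs had medians of -2.11 in MDS/MPN and -2.09 in RAEB, against -2.73, -2.71 and -3.17, so the diseased pairs had the smaller medians in both directions.

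**Figure D2:**
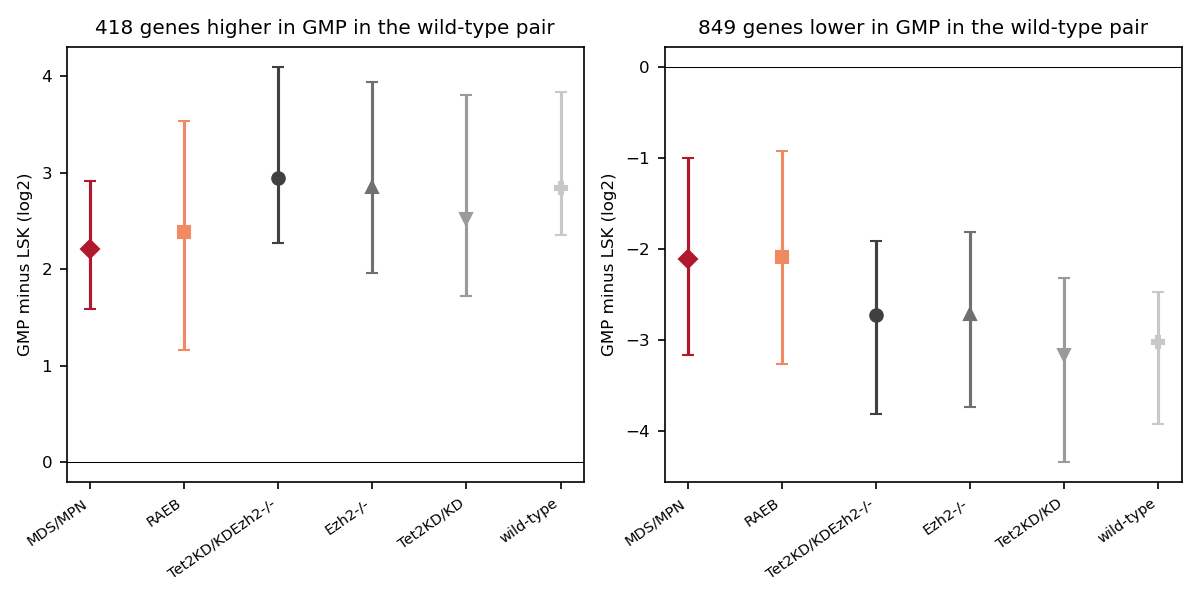
Median GMP minus LSK difference (log2, points) with the lower and upper quartile over genes (bars) in each pair of arrays, for genes at least 4-fold higher (left) or lower (right) in wild-type GMPs. The wild-type pair chose the genes and is shown for scale; both diseased pairs lie nearer to 0 than the other pairs.

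Genes of the primary granule list stayed high in GMPs, with a smaller margin over LSK cells. The list also holds Hp and Anxa3, which encode no granule enzyme. Of the 16 genes tested, 13 rose and 0 fell in disease (median 2.16, against 0.16 over all genes), and 15 rose without disease (median 2.77). The shares of all genes that rose were 20.0% in disease and 27.0% without. Of the 16, 5 had a called smaller difference in disease, against 1.49% of all genes. Those 5 were Elane, Hp, Anxa3, Ctsg and Mpo. Their number was 2, 0, 0 and 0 without the wild-type, Tet2KD/KD, Ezh2-/- or double mutant pair, 2 and 1 without the MDS/MPN or RAEB pair, and 0 against the double mutant pair alone. Hp, the haemoglobin scavenger haptoglobin, was 8.80 and 8.40 in diseased GMPs and 5.47 and 4.27 in diseased LSK cells, and its LSK levels without disease were 1.61, 0.40, 0.85 and 2.04. It rose by 3.73 in disease (SE 0.32, adjusted p = 0.000831) and by 6.66 without disease (adjusted p of the departure 0.0262). Anxa3, a membrane-binding annexin, held a level of 3.90 and 3.97 in diseased GMPs, against 3.82 to 4.00 in the other GMPs, and was 1.07 and 0.52 in diseased LSK cells, against -1.91 to -0.94 in the other LSK cells. Prtn3, the proteinase 3 gene, rose by 3.41 in disease (SE 0.26) and its departure of -0.95 did not pass (adjusted p = 0.114). In 12 of the 16 genes both diseased LSK arrays lay above all 4 others, against 27.0% of all genes.

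Regulators and receptors of the GMP stayed high as well. Of the 24 on that list, 21 rose and 0 fell in disease (median 1.85), against 20.0 and 14.0% of all genes. Without disease 19 rose and 2 fell (median 2.09), against 27.0 and 20.4%. The departure passed for 6 of the 24, against 7.56% of all genes. Of these 6, 4 were smaller in disease (Ms4a3, Mefv, Igsf6 and Csf1r) and 2 of opposite sign. The last 2 were the zinc finger factors Klf4 (2.04 in disease and -0.56 without) and Egr2 (1.46 and -1.95), which the immediate-early list also holds. Cebpe, a late granulocytic transcription factor, rose by 5.03, Cebpd by 3.05 and Cebpa, the factor that commits cells to the granulocytic path, by 1.46; none of the 3 departed from its difference without disease at the threshold. Mefv, the gene for the inflammasome sensor pyrin, was 4.36 and 3.95 in diseased GMPs and 0.12 and -0.88 in diseased LSK cells, against -3.06, -3.36, -3.32 and -3.67 in the other LSK cells. Its difference was 4.54 in disease (SE 0.31) and 7.05 without (adjusted p of the departure 0.0307). A second, dimmer probe gave 4.17 in disease and 4.61 without, a much smaller gap. Igsf6 and Csf1r, the receptor for the macrophage growth factor M-CSF, also had smaller differences, at 3.75 against 7.02 and 1.66 against 2.78.

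Marker lists of mature cells were read on the same arrays, since both diseased LSK arrays were higher for these myeloid genes. Late neutrophil granule genes were summed over 18 genes on the linear scale, in units of the 75th percentile. The list holds 23 genes, 21 of them with a probe. Mmp9, Mmp25 and Fpr1 were not tested, since fewer than 2 arrays measured them well above background. The sum was 297 and 1540 in diseased GMPs and 388 and 29.9 in diseased LSK cells, against 61.2 to 113 in other GMPs and 25.7 to 109 in other LSK cells. The MDS/MPN LSK array thus stood above all other LSK arrays for these genes, with 18 of 18 well above background, while the RAEB LSK array lay within their range with 14 of 18. The primary granule list summed to 2150 and 1730 in the 2 diseased LSK arrays, both above the 901 to 1130 of the others, while the late granule sum of the RAEB LSK array lay within the range of LSK cells without disease. The part of mature neutrophils in the MDS/MPN LSK values was not tested. The monocyte list summed to 185 and 214 in diseased LSK cells, below the 233 to 536 of the others, but 1 of its 22 members, Nr4a1, which is also an immediate-early gene, set this order. Without Nr4a1, a choice made after seeing the data, the sum was 178 and 143 in diseased LSK cells and 59.2 to 87.0 in the others. Both diseased LSK arrays lay above all 4 others for 15 of the 22 genes, against 27.0% of all genes. The part of monocytes in the diseased LSK values was not tested.

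**Figure D3:**
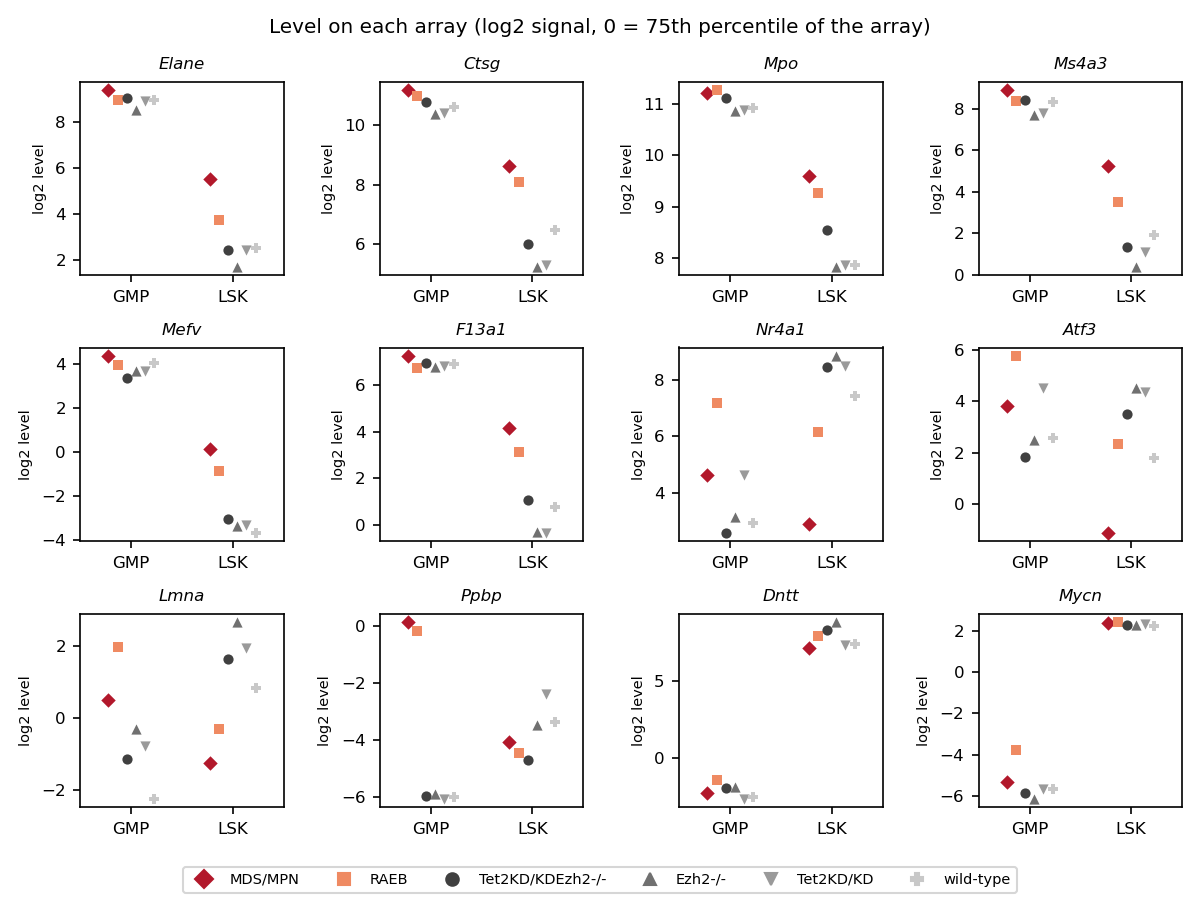
Level of 12 genes on each of the 12 arrays (log2 signal relative to the array's 75th percentile), GMP arrays left and LSK arrays right in each panel, with 1 symbol for each condition. Elane, Ctsg, Mpo, Ms4a3, Mefv and F13a1 are higher in both diseased LSK samples than in the other LSK samples; Lmna and Ppbp are higher in GMPs in disease and lower without it, Nr4a1 and Atf3 have larger GMP minus LSK values in both diseased pairs than in the others, and Dntt and Mycn keep their direction.

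Monocyte genes were divided. Of 22 tested, 12 rose and 0 fell in disease (median 1.20), against 20.0 and 14.0% of all genes. Without disease 13 rose and 2 fell (median 2.34), against 27.0 and 20.4%. The departure passed for 8 of the 22, against 7.56% of all genes. Of these 8, 5 were smaller in disease and 3 of opposite sign. F13a1, the A subunit of coagulation factor XIII, rose by 3.35 in disease and by 6.58 without. Adgre1, the F4/80 antigen of macrophages, was 1.01 and 0.26 in diseased GMPs and -2.04 and -2.77 in diseased LSK cells, and rose by 3.04 (SE 0.30, adjusted p = 0.00138). Its LSK arrays without disease were all not well above background, which makes it at least 26.9-fold higher in GMPs there by this probe. A second, slightly dimmer probe gave 3.0 in disease and 3.36 without, so it showed neither that bound nor a clearly smaller difference in disease.
Ccr2, the chemokine receptor that guides monocytes out of the marrow, was 1.31 and -0.22 in diseased GMPs and 2.50 and 2.24 in diseased LSK cells. Without disease it was 3.50, 1.07, 2.39 and 2.64 in GMPs and 1.19, -4.11, -3.80 and -2.52 in LSK cells. The double mutant LSK array without disease was thus the highest of its group and the nearest to the diseased ones. The departure of Ccr2 was -6.54 (SE 1.03, adjusted p = 0.0307), and its difference in disease, -1.83, did not itself pass (adjusted p = 0.133). Cx3cr1, the fractalkine receptor, had a departure of -5.12 (SE 0.86, adjusted p = 0.0307), with 1.54 and -2.25 in diseased GMPs and 1.40 and 0.95 in diseased LSK cells.

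The stem cell programme kept its direction. Of 36 haematopoietic stem cell genes tested, 0 rose and 29 fell in diseased GMPs (median -2.40), against 20.0 and 14.0% of all genes. Without disease 33 fell (median -3.16), against 20.4%. In both diseased pairs 33 were negative, against 29.7%. The departure passed for 1 of the 36, against 7.56% of all genes. It was the thioredoxin-binding gene Txnip, at -0.81 in disease against -1.99 without. Meis1, a homeobox cofactor of Hox proteins, was 1.30 and 1.36 in diseased GMPs and 4.52 and 4.73 in diseased LSK cells, so the groups lay far apart. It fell by 3.29 in disease (SE 0.17, adjusted p = 0.000245) and by 3.35 without. Mn1, a transcriptional cofactor and leukaemia gene, was not well above background in any GMP array, and was at least 23.7-fold lower in diseased GMPs and at least 32.3-fold lower in the others. Nkx2-3, a homeobox gene, was at least 20.7-fold lower in diseased GMPs. Robo4, a guidance receptor of stem cells and endothelium, was 3.04 and 3.28 in diseased LSK cells and -5.58 and -1.97 in diseased GMPs, well above background in the RAEB GMP array only, and fell by 6.93 (SE 0.68, adjusted p = 0.00126). Vwf (0.25 in disease and -2.89 without), Mecom (-1.56 and -3.80) and Ly6a, which encodes Sca-1 (0.05 and -1.35), did not pass in disease.

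Lymphoid, class II and interferon genes also stayed low in diseased GMPs. Among all genes 14.0% fell and 20.0% rose in disease, and 7.56% had a called departure. Of 19 lymphoid priming genes 12 fell and 1 rose in disease (median -2.13). Il7r, the receptor for interleukin 7, was at background in both diseased GMP arrays and at least 5.50-fold lower, and Ly6d, a marker of lymphoid commitment, at least 17.8-fold lower. Of 8 Gimap genes, GTPases of lymphoid cells that lie in a cluster, 7 fell and 1 rose in disease. Gimap8 was 0.34 and 0.50 in diseased LSK cells, against 1.39, 1.60, 1.77 and 1.17 in other LSK cells, and was at least 18.2-fold lower in diseased GMPs and at least 48.3-fold lower in the others. Of 38 interferon response genes 24 fell and 0 rose in disease (median -1.26), and the departure passed for 1, Parp14. Ifi44 was at least 18.9-fold lower in diseased GMPs and Rtp4 fell by 4.18 (SE 0.43). H2-Eb1, a class II antigen presentation gene, fell by 5.07 (SE 0.44) within a class II and dendritic cell list in which 7 of 15 fell and 1 rose.

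Eosinophil granule genes were among the largest rises in disease. Prg2, the eosinophil major basic protein, was 10.13 and 8.51 in diseased GMPs and 4.55 and 1.18 in diseased LSK cells. Without disease it was 5.41, 5.42, 3.77 and 5.65 in GMPs and -1.31, 1.31, 0.86 and 1.44 in LSK cells. Both diseased GMP arrays lay above every other array, and the MDS/MPN LSK array lay above every other LSK array. Prg2 rose by 6.45 in disease (SE 0.84, adjusted p = 0.00287) and by 4.49 without, and this departure did not pass (adjusted p = 0.261). Epx, the eosinophil peroxidase, rose by 5.56 (SE 0.55), Prg3 by 5.52 (SE 0.62), and the ribonuclease genes Ear1 and Ear2, whose near-identical relatives may share their probes, by 5.70 and 5.22. Without disease Epx rose by 4.51, Prg3 by 5.23, Ear1 by 2.34 and Ear2 by 2.45, and none of these departures passed. Prg3 was 6.10 and 1.99 in diseased GMPs, against 0.87 to 2.59 in other GMPs. On the mast, basophil and eosinophil list 10 of 21 rose and 1 fell in disease, against 15 and 1 without disease. The shares over all genes were 20.0 and 14.0% in disease and 27.0 and 20.4% without. Summed signal of the list was 2230 and 607 in diseased GMPs, against 181 to 230 in other GMPs. The mast cell and basophil gene Hdc, which encodes the enzyme that makes histamine, rose by 4.25 in disease and by 6.46 without, a smaller difference (adjusted p of the departure 0.0289). Cpa3, the mast cell carboxypeptidase, had a difference of 0.56 in disease that did not pass, against 2.91 without.

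Immediate-early genes, which are transcribed within minutes of a stimulus and encode mostly transcription factors and phosphatases, ran in opposite directions with and without disease. Of 27 tested, 11 rose and 0 fell in diseased GMPs (median 1.29), against 20.0 and 14.0% of all genes. In GMPs without disease 0 rose and 17 fell (median -1.33), against 27.0 and 20.4%. The departure passed for 17, all positive, against 4.22% of all genes, and its median was 2.59, against 0.05 over all genes. Both diseased pair differences lay above all 4 others for 24 of the 27 genes, against 23.0% of all genes. Both diseased LSK arrays lay below the other LSK arrays for 12 of the 27, against 18.3% of all genes. Both diseased GMP arrays lay above the other GMPs for 11 of the 27, which is nearer to the 28.9% of all genes. The list median of the departure stayed between 2.10 and 3.17 over 17 alternatives. The number of called members was 2, 3, 2, 3 and 1 without the wild-type, Tet2KD/KD, Ezh2-/-, double mutant or RAEB pair, 9 without the MDS/MPN pair, and 0 against the double mutant pair alone.

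Nr4a1, an orphan nuclear receptor, was 4.63 and 7.18 in diseased GMPs and 2.88 and 6.16 in diseased LSK cells. Without disease it was 2.57, 3.11, 4.62 and 2.93 in GMPs and 8.48, 8.86, 8.51 and 7.44 in LSK cells. Every LSK array without disease lay above both diseased LSK arrays, and the MDS/MPN LSK array was the lowest of the LSK samples. The difference of Nr4a1 was 1.38 in disease, which did not pass (SE 0.50, adjusted p = 0.074), and it fell by 5.01 without disease; the departure was 6.40 (SE 0.62, adjusted p = 0.0127).
Atf3, a stress-induced transcription factor, was 3.82 and 5.75 in diseased GMPs and -1.12 and 2.32 in diseased LSK cells, against 1.82 to 4.50 in other GMPs and 1.79 to 4.51 in other LSK cells. It rose by 4.19 in disease (SE 0.72, adjusted p = 0.00707), with a departure of 4.89 (adjusted p = 0.0323). Fosl1, a subunit of the factor AP-1, rose by 2.37 in disease (SE 0.36) and fell by 2.23 without (adjusted p of the departure 0.0123). Fosb, another AP-1 subunit, rose by 2.52 in disease and fell by 1.33 without, and Egr1, a zinc finger factor, had departures of the same kind, at 0.58 in disease, which did not pass, and -3.83 without. Myc stood apart from the list, with differences of -0.13 in disease and -0.11 without.

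**Figure D4:**
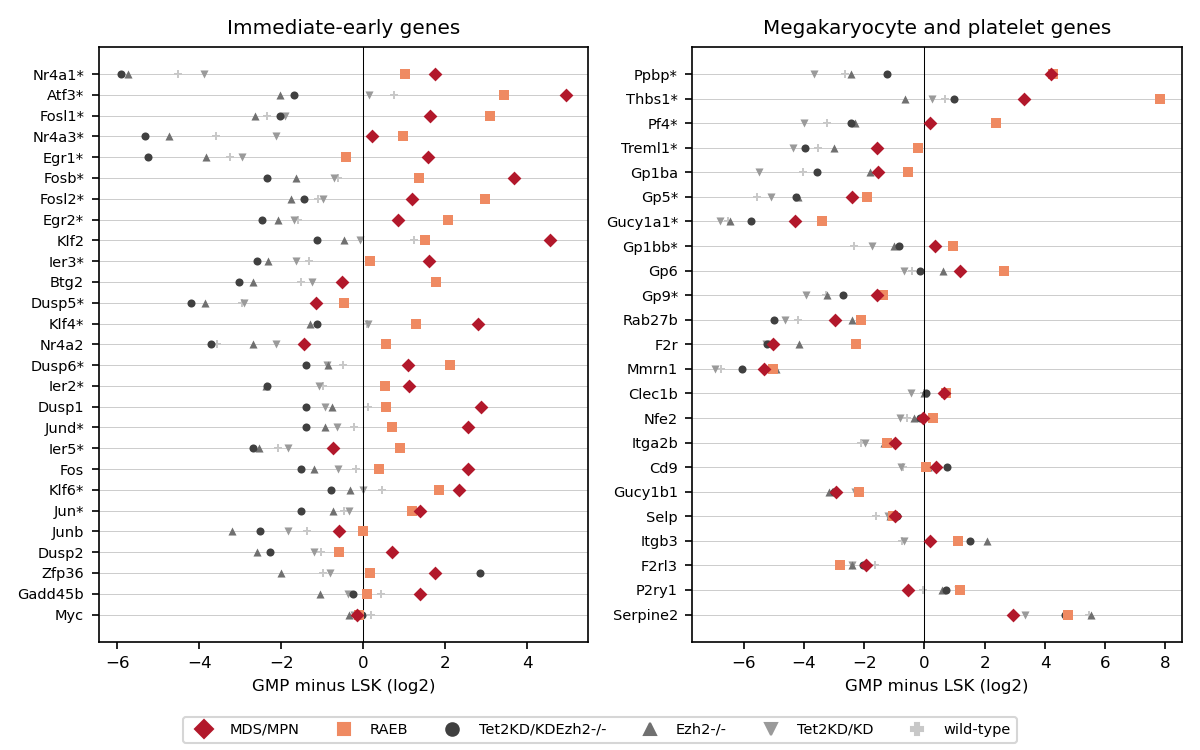
GMP minus LSK difference (log2) of each tested immediate-early gene (left panel) and megakaryocyte and platelet gene (right panel) in each of the 6 pairs of arrays, ordered by the departure in disease. An asterisk marks a departure with an adjusted p under 0.05; the 2 diseased pairs lie right of the other 4 for 24 of 27 immediate-early genes.

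Other genes of opposite sign in disease included regulators outside that list. Lmna, which encodes the nuclear envelope proteins lamin A and C, was 0.52 and 1.99 in diseased GMPs and -1.24 and -0.30 in diseased LSK cells. Without disease it was -1.13, -0.31, -0.77 and -2.24 in GMPs and 1.66, 2.67, 1.95 and 0.84 in LSK cells, so in both cell types the diseased arrays lay outside the others. Lmna rose by 2.02 in disease (SE 0.20, adjusted p = 0.00125) and fell by 2.89 without; the departure of 4.92 (SE 0.24, adjusted p = 0.00217) passed under all 17 alternatives. Plk2, a polo-like kinase induced by stress, rose by 3.20 in disease (SE 0.49) and fell by 2.65 without. The cell cycle inhibitor Cdkn1a was 2.05 and 5.22 in diseased GMPs and 0.99 and 1.80 in diseased LSK cells, with a departure of 4.07 (SE 0.63, adjusted p = 0.0307); a second, dimmer probe gave 2.27 in disease and 0.09 without.
Smad7, the inhibitor of TGF-beta receptors, had a difference of -0.06 in disease that did not pass (SE 0.22, adjusted p = 0.838) and fell by 2.58 without (adjusted p of the departure 0.0164). Its levels were -0.64 and 0.36 in diseased GMPs and -0.47 and 0.31 in diseased LSK cells, against 1.08 to 2.05 in other LSK cells. The Notch target Hes1 was at background in both diseased GMP arrays and in the MDS/MPN LSK array, and was -0.20, -0.07, -0.33 and -1.99 in the other LSK cells. Nrarp, a feedback inhibitor of Notch, was at least 2.40-fold lower in diseased GMPs and at least 12.0-fold lower in the others. The difference of the inflammatory cytokine gene Il1b was larger in disease, at 5.97 (SE 0.72, adjusted p = 0.00227), with 0.52 and 3.17 in diseased GMPs and -3.97 and -4.27 in diseased LSK cells. Cd14, the lipopolysaccharide co-receptor of monocytes, was 3.92 and 6.21 in diseased GMPs and -0.42 and -1.31 in diseased LSK cells. Unlike Il1b, it was also higher in GMPs without disease. Cd14 rose by 5.93 in disease and by 5.04 without, a departure of 0.89 that did not pass (adjusted p = 0.506).

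Megakaryocyte and platelet genes were less clearly low in diseased GMPs. Of 23 tested, 5 rose and 10 fell in diseased GMPs (median -0.90), against 20.0 and 14.0% of all genes. The 5 rises were thus near the share of all genes. Without disease 1 rose and 16 fell (median -2.12), against 27.0 and 20.4%. The departure passed for 8 of the 23, all positive, against 4.22% of all genes. Both diseased GMP arrays lay above the other GMPs in 17 of 23, against 28.9% of all genes. Ppbp, the platelet chemokine precursor, was 0.12 and -0.20 in diseased GMPs and -4.08 and -4.46 in diseased LSK cells. In GMPs without disease it was at background (-5.98, -5.90, -6.07 and -6.02), and LSK cells there had -4.73, -3.47, -2.40 and -3.39. Of the diseased LSK arrays, 1 of 2 was well above background. Ppbp rose by 4.23 in disease (SE 0.49, adjusted p = 0.00201), with a departure of 6.72 (SE 0.60, adjusted p = 0.0109). The guanylate cyclase subunit Gucy1a1 was at least 4.23-fold lower in diseased GMPs and at least 19.3-fold lower in the others. Thbs1, thrombospondin 1, was -2.14 and 1.55 in diseased GMPs and at background in diseased LSK cells, at least 19.9-fold higher. Called members numbered 1, 1, 1, 2 and 0 without the wild-type, Tet2KD/KD, Ezh2-/-, double mutant or RAEB pair, and 8 without the MDS/MPN pair.

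On the cell cycle list 0 of 36 genes rose and 2, Top2a and Kif11, fell in disease, and 15 rose without disease. The shares over all genes were 20.0 and 14.0% in disease, and 27.0% rose without. The departure passed for 2 of the 36, Top2a and Bub1, against 7.56% of all genes, so the list did not stand apart in called departures. Top2a, the DNA-untangling topoisomerase of dividing cells, was 2.07 and 1.52 in diseased GMPs and 2.99 and 3.16 in diseased LSK cells, and fell by 1.28 (SE 0.30, adjusted p = 0.02). Both diseased LSK arrays lay above the other LSK arrays in 25 of the 36 genes, against 27.0% of all genes. The list medians were 0.54 in MDS/MPN, within the 0.35 to 0.65 of the pairs without disease, and -0.45 in RAEB, below them. Of 21 heat shock and chaperone genes 8 rose in disease, against 20.0% of all genes, and 17 without, against 27.0%. A negative departure passed for 5, against 3.34% of all genes. Among the 5 was the cytosolic chaperone Hsp90aa1 (-0.77 in disease, which did not pass, against 1.19 without). Another was the endoplasmic reticulum chaperone Hsp90b1 (0.58, which did not pass, against 2.54).

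Among all genes 20.0% rose and 14.0% fell in disease, and 27.0% rose and 20.4% fell without disease. Of 5 HoxB genes 2 fell and 0 rose in disease, against 3 and 0 without. Of 7 cyclin-dependent kinase inhibitors 2 rose and 1 fell in disease, against 1 and 4 without. Hoxa3 was -2.45 and -1.55 in diseased GMPs and -0.89 and -0.16 in diseased LSK cells, fell by 1.47 (SE 0.19, adjusted p = 0.00299), and fell by 2.87 without disease (adjusted p of the departure 0.0308). Hoxa5 had -0.53 in disease, which did not pass, against -2.06 without (adjusted p of the departure 0.0328). Of 11 genes on the HoxA list with its cofactors 4 fell and 1 rose in disease, against 9 and 1 without. Of 25 Polycomb genes 6 fell and 1 rose in disease, against 6 and 5 without. Of 18 TGF-beta and BMP receptor and SMAD genes 9 fell and 0 rose in disease, against 12 and 0 without. Erythroid genes stayed higher in LSK cells, with 11 of 15 lower and 1 higher in diseased GMPs, led by the globin gene Hbb-bt at -6.22 (SE 0.40), whose near-identical copies may share its probe, and the carbonic anhydrase gene Car2 at -5.06 (SE 0.27). Without disease the erythroid list likewise had 11 lower and 1 higher. Of the T and NK cell list 4 of 16 fell and 1 rose in disease, against 10 and 0 without. Of the oncofetal list 4 of 9 rose and 2 fell in disease, against 3 and 2 without. Among 12 stromal and endothelial genes 5 rose and 5 fell in disease, against 3 and 6 without. The matrix protein gene Sparc on that list was at -5.66 (SE 0.34), a larger difference than the -3.83 without disease (adjusted p of the departure 0.0486).

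**Figure D5:**
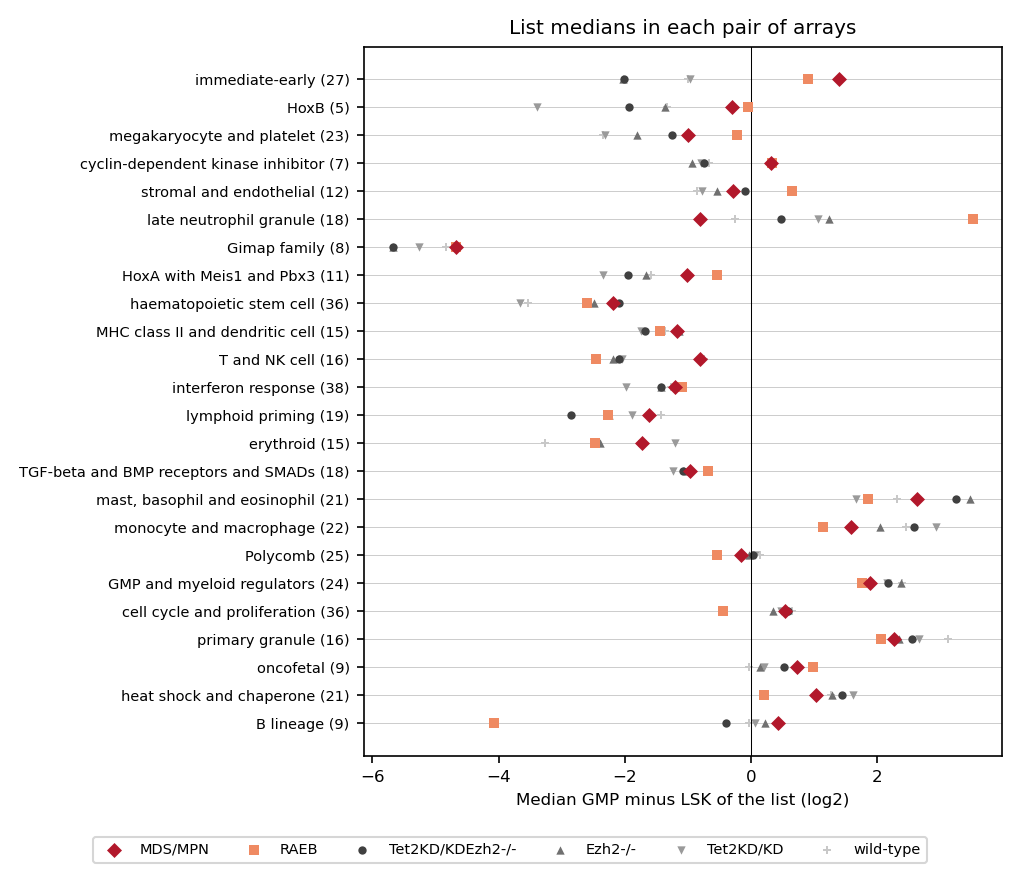
Median GMP minus LSK difference (log2) of each gene list in each of the 6 pairs, with the number of genes tested in brackets, ordered by the median departure in disease. Both diseased pairs lie outside the range of the other pairs for the immediate-early list. They also do so for further lists, among them the monocyte, megakaryocyte, HoxA, HoxB and cyclin-dependent kinase inhibitor lists. They lie apart from each other for the late neutrophil and B lineage lists.

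The RAEB and MDS/MPN pairs, 1 each and so without a test, differed by at least 4-fold in their cell type difference for 563 genes, 272 in the positive direction (1.98%) and 291 in the negative (2.12%). Over both diseased pairs 5 of the 18 late neutrophil genes rose and 1 fell, and of 9 B lineage genes 1 rose and 2 fell. The shares over all genes were 20.0% higher and 14.0% lower. The late neutrophil list had medians of 3.52 in the RAEB pair and -0.81 in the MDS/MPN pair. Chil3, a chitinase-like protein of neutrophils and macrophages, was 9.56 in GMPs and -1.51 in LSK cells in RAEB, and 4.87 and 4.64 in MDS/MPN, a difference between the pairs of 10.84. Ngp, a neutrophil granule protein, was 0.24 in GMPs and -3.66 in LSK cells in RAEB, and -1.09 and 1.96 in MDS/MPN. The B lineage list ran the other way, with medians of -4.08 in the RAEB pair and 0.43 in the MDS/MPN pair. Vpreb3, part of the surrogate light chain machinery of early B cells, was 2.55 in RAEB LSK cells and -3.14 in MDS/MPN LSK cells, against -4.11 to -2.47 in LSK cells without disease. The surrogate light chain gene Igll1 was 0.02 in RAEB LSK cells, the 1 LSK array without disease or with it where it was well above background, and -5.91 in MDS/MPN LSK cells. On the B lineage list, 9 of the 9 tested genes were well above background on the RAEB LSK array and 6 of 9 on the MDS/MPN LSK array, against 4 to 6 on the other LSK arrays. The list holds 15 genes, all with a probe. The rest, Pax5, Ebf1, Ms4a1, Blk, Fcrla and Bank1, were not tested, since fewer than 2 arrays measured them well above background.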

How the data were processed

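Total RNA was extracted with Trizol, amplified, labelled with Cy3 and hybridised to one-colour arrays, per the labels. The deposited files were written by Agilent Feature Extraction 10.7.1.1, per the file headers, and the authors' processed signal is a linear intensity, background-subtracted and detrended within the array. The deposited spot and background medians are intensities too, and the other deposited columns are flags. The authors' value table equalled the processed intensity at all 62976 spots of each array. No gene spot was saturated.

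From these, log2 of the processed signal minus the log2 of the array's 75th percentile over 59305 gene spots was computed, spots of a probe were averaged without those flagged as outliers, and the probe of a gene with the highest mean was kept. Of 55681 probes, 26762 had 1 symbol, 0 several and 28919 none, by RefSeq accession and a GRCm38.p6 table used for names; the headers name another build. Tested were 13713 of 20284 genes, those that 2 or more arrays measured well above background. In limma 3.58.1 (R 4.3.3) all 12 arrays were fitted with condition as a block and the cell type effect separately with and without disease, leaving 4 residual degrees of freedom, two-sided. Where 1 array stood for a group, limma pooled the spread. The fit was tested on simulated data. The number of arrays limits the precision.

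Same-condition arrays deviated together without disease (correlations of 0.18 to 0.26) but not in disease (0.01); the pairing comes from the condition names. The text names the 4 markers, Tet2, Ezh2 and sex-linked genes, up to 12 genes in each direction with the largest called difference in disease, up to 12 with the largest called departure of each kind, up to 4 members of each of the 25 lists by smallest p, and up to 5 in each direction between the 2 diseased pairs. Clone-type names were left out, and the brighter arrays had to measure the gene well above background. Some other list members, such as Cebpe, Egr1, Vwf or Parp14, and the printed promoters were chosen after their values were seen. The members, lists and tests were chosen with earlier results of these data known. Bounds written "at least" use the lowest signal well above background. Quantile normalization, normexp with an offset of 50 (on the spot and background medians, since no mean signal column was used), filters, floors, all probes, another moderation, no block, fewer arrays and leaving out each pair were tried.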

Additional observations from a re-analysis of the deposited data

Results flagged for a closer look

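The genes below had a GMP minus LSK difference in disease that departed from that without disease in the limma fit (adjusted p under 0.05); values are the difference in disease minus that without disease, in log2 units, and no cause was tested. Slide and sex pattern move with cell type in disease and cannot be told apart from it.

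With a smaller difference in disease were Mrgpra2a (-5.17) and its near-identical relative Mrgpra2b (-4.75), Mas-related receptor genes whose probes may share signal, Igf2r (4.01), Tctex1d1 (-3.99), Nrp1 (-3.89), Cavin2 (3.88), Hes1 (3.87), Gria3 (-3.75), Wfdc18 (3.64), Nrarp (3.55), Fam110c (3.43) and P2ry10 (3.29). The Fam110c probe used gave -2.76 in disease and -6.18 without. A second, slightly dimmer Fam110c probe gave -1.68 and -3.02, a smaller gap. Mrgpra2a was 2.45 and 1.67 in diseased GMPs and 2.26 and 0.87 in diseased LSK cells, against -6.52 to -1.08 in LSK cells without disease. Nrp1, the receptor neuropilin 1, was at background in all 4 LSK arrays without disease and well above it in both diseased LSK arrays, at -3.26 and -3.90.

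Larger in disease were the differences of the sex-linked Eif2s3y (7.35), Xist (-6.91) and Ddx3y (5.20), and Thbs1 (5.24), Il1b (5.17), Gpnmb (4.40), Rcvrn (-4.36), Trnp1 (4.10), Tmc7 (4.03), Slc13a5 (3.78), Ednra (3.76) and Trib1 (3.63). None of these 12 had a called difference without disease, where Ednra was 0.00, Xist -0.15, Rcvrn -0.22 and Tmc7 0.22. Gpnmb, Tmc7 and Slc13a5 were well above background in the diseased GMP arrays alone, and Rcvrn in the diseased LSK arrays alone. These 4 genes therefore passed the filter on dim probes only through the arrays where they were high, and had to differ. Their values rest on 10 arrays at background and are not exact, and their calls support nothing. Trib1, a pseudokinase that directs C/EBP alpha to degradation, was 3.36 and 4.42 in diseased GMPs and -1.53 and 0.43 in diseased LSK cells, against 1.57 to 2.76 in other LSK cells.

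Of opposite fitted sign in disease were Ppbp (6.72), Ccr2 (-6.54), Nr4a1 (6.40), Ramp3 (6.21), Plk2 (5.84), Il1r2 (5.26), Il10 (5.15), Cx3cr1 (-5.12), Lmna (4.92), Atf3 (4.89), Hey1 (4.82) and Slc15a2 (4.82). For Ppbp, Ramp3, Plk2 and Lmna both differences passed. The difference in disease did not pass for Ccr2, Nr4a1, Il1r2, Il10, Cx3cr1 and Hey1, so its sign is not established, and Il1r2, Il10 and Cx3cr1 had 1 diseased pair with the sign seen without disease. Atf3 and Slc15a2 had no called difference without disease. Hey1, a Notch target, was not well above background on any diseased array and lay between -1.52 and -0.01 in LSK cells without disease. Slc15a2 was at background on both diseased LSK arrays and was not well above background on any array on which Eif2s3y was not. Il1r2, the decoy receptor for interleukin 1, was -2.26 and 1.69 in diseased GMPs, so the RAEB array was the higher by far.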

How the results depend on the processing

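Of the values for named genes over the alternatives, 4584 kept direction and side of the threshold, 432 no longer passed, 125 newly passed and 7 turned sign. The 7 were, with normexp, the departure of Chst13 (0.73) and Ms4a6d (0.25) and the disease difference of Gucy1b1 (0.18), Hoxb2 (0.01), Hoxb5 (0.13) and Acvr2a (0.23), and, without the MDS/MPN pair, Dok6 (-2.84, and 3.11 without the RAEB pair). The summed monocyte list, mean of diseased minus mean of other LSK arrays, turned to 85.6 without Nr4a1, against -215 with it; that setting and the common floor were added after seeing the data. Genes called in disease numbered 9274 with no filter on dim probes and 1720 with the 4 diseased arrays alone (2924 to 4366 leaving out a pair, lowest without MDS/MPN); without disease, 1519 with the double mutant pair alone. Called departures numbered 3520 with normexp, 5310 with no filter, 1756 with no replicate block and 8 against the double mutant pair alone (38 to 1532 leaving out a pair); the no-filter setting tests 20284 genes, and other causes were not tested. Members past the threshold were, for immediate-early genes, 4 in disease on the 4 diseased arrays alone, and for their departure 11 with no replicate block and 0 against the double mutant pair. The double mutant pair alone also gave 0 for the platelet, granule and stem cell departures. Leaving out a pair gave 5 to 11 immediate-early members in disease and, for departures, 1 to 9 immediate-early, 0 to 8 platelet, 0 to 2 granule and 0 to 7 stem cell members. Normexp gave 8 granule and 11 stem cell departures; stem cell genes had 5 with no filter, 2 with the stricter filter, 7 with a floor per array, 0 with the mean of all probes, 5 with trend and robust moderation, 4 with no replicate block and 4 with the common floor. The median difference over both diseased pairs of wild-type-chosen genes was 2.14, and 2.19 (quantile), 2.15 (normexp), 2.05 (no filter), 2.22 (stricter filter), 2.09 (floor per array), 2.12 (all probes), 2.16 (common floor) and 1.12 (2-fold choice). The RAEB against MDS/MPN count of 563 became 104 with normexp, 321 with a floor and 293 with the common floor. Quantile normalization gave 1910 higher and 2490 lower genes in disease, against 2741 and 1916, and moved the median of all genes to -0.05 in place of 0.16; departures were 45.3% positive in place of 55.8%, 82.7% with no filter and 65.0% with normexp. Dim probes are limited by signal over background, which was weakest on the diseased GMP arrays.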
